A study of Mus musculus with 16 samples.

Results

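The levels of 9 long noncoding RNA genes were followed in mouse liver: 2 nuclear RNAs, Malat1 and Neat1, and 7 host genes of small nucleolar RNAs, Gas5, Snhg1, Snhg5, Snhg6, Snhg8, Snhg12 and Zfas1. They were taken by symbol from a table of 57010 genes, so they are 9 of 57010, and each symbol had 1 row. The study asked how selenium acts on the injury that cadmium causes in liver and kidney, and liver RNA of 16 mice was sequenced. All mice were wild-type male C57BL/6J, young adults by the study's methods. The control group (mice 27 to 30) received neither agent. The Cd group (mice 1, 2, 5 and 6) was injected intraperitoneally with CdCl2 at 1.25 mg/kg each day for 7 days, the Se group (mice 39, 40, 41 and 44) ate selenomethionine (SeMet) at 2 ppm for 3 months, and the Cd+Se group (mice 13 to 16) received both, with the injections in the last 7 days of the diet. The numbers differ between groups and pair no mice.

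Small nucleolar RNAs guide the chemical modification of ribosomal RNA. Box C/D members direct methylation and box H/ACA members direct pseudouridine formation, and most are cut out of introns of a host gene, so that the spliced exons measured here and the small RNA come from 1 transcript. Exons of many such hosts carry no conserved reading frame, are degraded in the cytoplasm by nonsense-mediated decay, and begin with a pyrimidine tract like that of ribosomal protein mRNAs. Malat1 lies in nuclear speckles, where splicing factors are stored, and Neat1 is the scaffold of paraspeckles. Malat1 and the long form of Neat1 end in a triple helix rather than in an ordinary poly(A) tail, while these libraries were made from RNA selected on oligo(dT), so the levels below are those of the RNA that this selection kept.

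Small RNAs carried by 3 of the hosts are shown because they show what each class of host transcript contains. They are from GENCODE M21 (GRCm38), with the guide class boxes in capitals. For Snora24 of Snhg8, at chr3:123507937-123508066 on the minus strand, the capitals mark the H box (letters ANANNA) and the ACA box. For Snord87 of Snhg6, at chr1:9942463-9942549 on the minus strand, and Snord99 of Snhg12, at chr4:132310691-132310764 on the plus strand, they mark the C box TGATGA and the D box CTGA.
Snora24: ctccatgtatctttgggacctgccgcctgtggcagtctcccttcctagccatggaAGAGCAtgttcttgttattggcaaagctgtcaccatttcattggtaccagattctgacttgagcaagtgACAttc
Snord87: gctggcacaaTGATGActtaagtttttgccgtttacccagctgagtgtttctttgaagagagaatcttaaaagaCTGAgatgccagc
Snord99: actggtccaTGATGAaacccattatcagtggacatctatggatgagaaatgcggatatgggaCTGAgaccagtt

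The annotation places 30 small nucleolar RNA genes inside the 7 hosts on the same strand: 10 in Gas5, 8 in Snhg1, 5 in Snhg12, 3 in Zfas1, 2 in Snhg5, and 1 each in Snhg6 and Snhg8. They bear 28 names, since Snord80 in Gas5 and Snora16a in Snhg12 are each annotated under 2 identifiers at nearly the same position. In 1 of the 30 no exon of any annotated host transcript covers the small RNA, and the others overlap an exon of at least 1 transcript form. Of the 30, 26 are rows of the table and 0 of the 26 are listed above 0 TPM in any of the 16 libraries. The measurements below are therefore of the host RNAs and hold nothing on the small RNAs. Small nucleolar RNAs are short and carry no poly(A) tail, and libraries selected on oligo(dT) are not made to hold them.

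Starts are shown because host RNAs are known for pyrimidine starts. The 4 hosts shown were those with the longest pyrimidine runs, with Malat1 for contrast, so they do not stand for all hosts. Each window runs from 20 bases before the annotated start to 30 bases from it on (RefSeq, GRCm38.p6), and the capitals mark the longest unbroken run of C and T that opens with a C within 5 bases of that start. The windows are at chr3:123508307-123508356 (minus) for Snhg8, chr4:132308658-132308707 (plus) for Snhg12, chr1:161035146-161035195 (plus) for the second annotated start of Gas5, chr19:8723467-8723516 (plus) for Snhg1 and chr19:5802643-5802692 (minus) for Malat1.
Snhg8: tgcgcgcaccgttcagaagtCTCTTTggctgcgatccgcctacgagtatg
Snhg12: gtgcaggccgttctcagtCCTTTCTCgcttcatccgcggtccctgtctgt
Gas5: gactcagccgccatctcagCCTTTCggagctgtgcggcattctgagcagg
Snhg1: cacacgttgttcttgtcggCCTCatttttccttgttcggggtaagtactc
Malat1: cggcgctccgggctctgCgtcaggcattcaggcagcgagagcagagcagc

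The run was 8 bases long in Snhg12, 6 in Snhg8 and at the second start of Gas5, 4 in Snhg1, 3 at the first start of Gas5 and in Snhg5 and Zfas1, and 1 in Malat1. A run of at least 5 bases was found in 18.3% of 32851 windows and in 42.5% of the 73 windows of ribosomal protein genes. Start windows of 7 of the 9 genes were at hand. In the 300 bases around each start, from 250 before to 50 after, TGACNNNGC, the core of the antioxidant response element, matched 2 times in Snhg8 and 1 time in Zfas1 on either strand, and 12.4% of all windows held it. The core of the metal response element, TGCACNC or TGCGCNC on either strand, matched 3 times in Snhg8 and in Snhg5, 2 times in Zfas1 and 1 time at the first start of Gas5, and 25.7% of all windows held it. Matches of both motifs may overlap, and a match is a run of letters and not a measured binding site.

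The table gives TPM, transcript numbers corrected for transcript length and scaled to a common total in every library, so that levels of different genes can be set side by side. TPM keep no depth, and the depth of these libraries is unknown. All 9 genes passed the filter used for testing, an average of 1 TPM or more across libraries, as did 11766 genes in all. The metallothionein mRNA Mt1, induced by cadmium, was at 50.9 to 221 TPM in control mice and 64.3 to 431 in Se mice, against 3178 to 4899 in Cd mice and 3621 to 6070 in Cd+Se mice, which matched the labels. Each library's profile correlated with those of its own group with a mean r of 0.956 to 0.979 over genes. Hepatocyte markers were high in every library, with 6 of 6 markers averaging 1 TPM or more. In liver tissue, fewer cells of a type and less RNA per cell cannot be told apart.

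Gas5 was the most abundant of the 9, with a mean of 255.6 TPM over the 16 libraries, followed by Snhg8 at 95.045, Malat1 at 85.1, Neat1 at 61.9, Snhg1 at 23.4, Zfas1 at 20.1, Snhg6 at 12.6, Snhg12 at 12.4 and Snhg5 at 6.16. In control mice this order held except that Snhg12 (10.6 ± 0.609 TPM, SD, n = 4) stood just above Snhg6 (9.68 ± 2.31). Ranges of control mice did not overlap between Gas5 and Snhg8, between Neat1 and Snhg1, or between Zfas1 and Snhg12. They overlapped between Snhg8 and Malat1, Malat1 and Neat1, Snhg1 and Zfas1, Snhg12 and Snhg6, and Snhg6 and Snhg5. Within single control mice, Snhg6 was above Snhg5 each time, at 11.25, 7.01, 11.94 and 8.53 against 7.19, 5.18, 6.05 and 5.83 TPM. The order of the other overlapping neighbours differed between control mice. In Cd mice Malat1 (126 ± 15.6 TPM) took the place of Snhg8 (118 ± 19.7) as the second of the 9, with overlapping ranges.

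**Figure D1:**
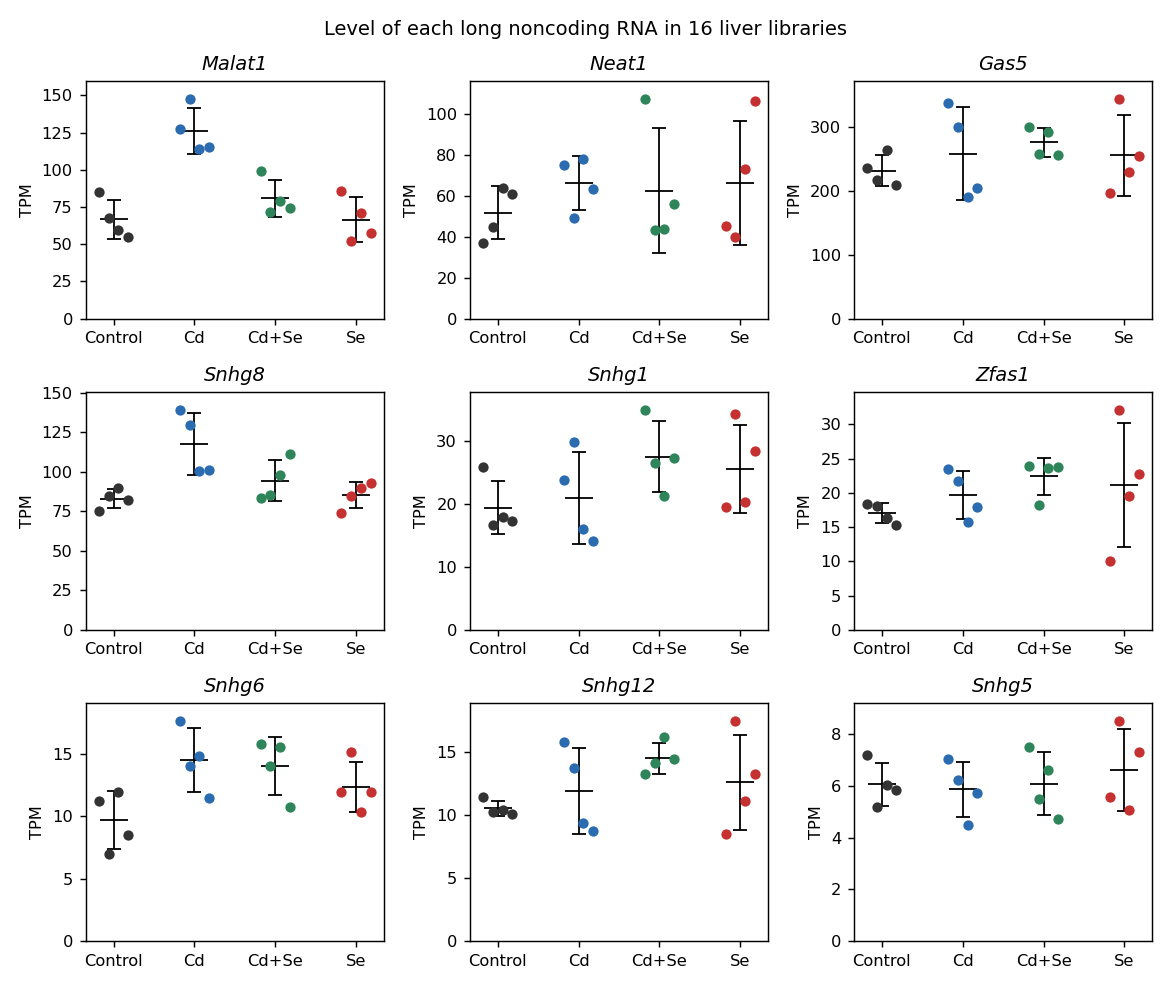
TPM of the 9 long noncoding RNAs in each of 16 liver libraries, by group. Each point is 1 mouse, the wide line is the mean of 4 mice and the bars are ± 1 SD. Malat1 was higher in each Cd mouse than in any other mouse. The hosts Gas5, Snhg1 and Snhg12 spread widely among the Cd and Se mice, and Zfas1 and Snhg5 among the Se mice.

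Malat1 showed the clearest pattern. It was at 84.9, 67.6, 59.8 and 54.9 TPM in control mice, 127.6, 147.8, 113.9 and 115.5 in Cd mice, 99.1, 71.5, 79.0 and 74.5 in Cd+Se mice, and 85.8, 52.2, 70.9 and 57.3 in Se mice. Every Cd mouse lay above all 12 other mice, and the other 3 groups overlapped. Levels were compared as log2(TPM + 1) in 1 limma model over all genes and libraries, with Benjamini-Hochberg adjusted p-values, and changes below are on this scale, which understates changes at low TPM. Malat1 was 1.89-fold higher in Cd than in control mice (log2 fold change 0.92, 95% interval 0.56 to 1.27, limma adjusted p = 0.00119). Cd+Se mice had less of it than Cd mice (log2 fold change -0.64, 95% interval -0.99 to -0.28, limma adjusted p = 0.0211), without overlap of the groups. Against control mice, Cd+Se mice differed by 0.28 on the log2 scale, with a 95% interval of -0.07 to 0.64 (limma adjusted p = 0.571). The call between Cd+Se and Cd mice was lost without Cd mouse 2 (limma adjusted p = 0.0505), without Cd+Se mouse 14 (0.0652) or with only these 2 groups in the model (0.0636).

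Neat1 varied among mice of the same group by more than its means differed. It was at 37.2, 44.9, 64.1 and 61.1 TPM in control mice, 75.3, 49.1, 78.2 and 63.7 in Cd mice, 107.8, 43.2, 44.05 and 55.9 in Cd+Se mice, and 45.6, 40.1, 73.2 and 106.6 in Se mice. The highest values belonged to 1 Cd+Se mouse (13) and 1 Se mouse (44), and all groups overlapped. The log2 fold change of Neat1 in Cd against control mice was 0.37, with a 95% interval of -0.30 to 1.03 (limma adjusted p = 0.396), an interval that holds the Malat1 value. A difference between both nuclear RNAs in their response to Cd was not tested.

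Among the hosts, Snhg8 and Snhg6 were higher in Cd than in control mice. Snhg8, which carries Snora24, was at 75.0, 84.6, 89.9 and 82.1 TPM in control mice, 139, 129.6, 100.6 and 101 in Cd mice, 83.3, 85.3, 97.9 and 111 in Cd+Se mice, and 74.1, 84.6, 89.4 and 93.1 in Se mice. All Cd mice lay above all control and all Se mice, and 1 Cd+Se mouse lay within the Cd range. The log2 fold change of Snhg8 between Cd and control mice was 0.49 (95% interval 0.21 to 0.76, limma adjusted p = 0.0107), or 1.40-fold. From Cd to Cd+Se mice it was -0.31 (95% interval -0.59 to -0.03), which did not pass the test (limma adjusted p = 0.111). It did pass after each library was centred on its median (-0.50, limma adjusted p = 0.00518) and after quantile normalization (-0.34, limma adjusted p = 0.0397).

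Snhg6, which carries the box C/D RNA Snord87, was at 11.2, 7.01, 11.9 and 8.53 TPM in control mice, 17.7, 14.05, 14.8 and 11.4 in Cd mice, 15.8, 14.1, 15.6 and 10.8 in Cd+Se mice, and 11.98, 15.2, 10.4 and 11.9 in Se mice. The lowest Cd mouse lay within the control range. Its log2 fold change in Cd against control mice was 0.55 (95% interval 0.18 to 0.92, limma adjusted p = 0.0258), or 1.46-fold. Between Cd+Se and Cd mice Snhg6 had a difference of -0.04, with a 95% interval of -0.41 to 0.33 (limma adjusted p = 0.895). Between Cd+Se and control mice its log2 fold change was 0.51, with an unadjusted limma p of 0.00999 and a limma adjusted p of 0.270. The Cd call for Snhg6 was lost without control mouse 28 (limma adjusted p = 0.0929), control mouse 30 (0.0655), Cd mouse 1 (0.0706) or Cd mouse 5 (0.0585), and without the filter on low values (0.0615).

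In Cd against control mice, 3 of the 9 RNAs thus passed the test, all higher. Over all genes tested, 30.8% passed and 5.82% were higher in Cd. The groups did not overlap, with Cd above control, for 2 of the 9 (Malat1 and Snhg8), against 6.44% of the genes tested. The median log2 fold change of all genes was -0.17, and relative to it Malat1 was higher by 1.09. The balance of directions moved with the scaling, and 18.9% of the genes that passed were higher in Cd with the deposited TPM, 42.9% with quantile-normalized values, 55.6% with centred ones and 16.4% after rescaling without mitochondrial and the 10 highest genes. Malat1, Snhg6 and Snhg8 kept their direction and call after quantile normalization and after centring. Gas5 also passed after centring, and the sign of Snhg5 turned under these 2 scalings.

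The other hosts had intervals that span 0 in Cd against control mice. Gas5, named for its rise in growth-arrested cells and the carrier of 10 annotated small RNA genes, was at 236, 217, 264 and 209.7 TPM in control mice and 338, 301, 190.3 and 205 in Cd mice. It was at 299.7, 258, 292 and 255.5 TPM in Cd+Se mice and 196, 344, 229 and 254 in Se mice. Mice 1 and 2 of the Cd group were above every control mouse and mice 5 and 6 were below every control mouse. Between Cd and control mice its log2 fold change was 0.12 (95% interval -0.27 to 0.52, limma adjusted p = 0.653), and after centring 0.34 (limma adjusted p = 0.0464).

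Snhg1, whose locus holds 8 annotated small RNA genes, was at 25.8, 16.7, 17.9 and 17.3 TPM in control mice, 23.9, 29.8, 16.02 and 14.1 in Cd mice, 35.0, 26.5, 21.3 and 27.3 in Cd+Se mice, and 19.5, 34.2, 20.3 and 28.4 in Se mice. Control mouse 27 stood apart from the other control mice. The log2 fold change of Snhg1 in Cd against control was 0.07 (95% interval -0.43 to 0.56, limma adjusted p = 0.855), and in Cd+Se against Cd 0.42 (95% interval -0.08 to 0.91, limma adjusted p = 0.225).

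Snhg12 was at 11.4, 10.3, 10.4 and 10.1 TPM in control mice, 15.8, 13.7, 9.41 and 8.78 in Cd mice, 13.2, 14.2, 16.2 and 14.5 in Cd+Se mice, and 8.54, 17.5, 11.2 and 13.2 in Se mice. The control mice lay within a narrow range, 2 Cd mice were above it and 2 below, and all Cd+Se mice were above it. How many of all genes were apart in this way between Cd+Se and control mice was not computed. In Cd against control mice its log2 fold change was 0.13 (95% interval -0.27 to 0.53, limma adjusted p = 0.644). Between Cd+Se and control mice it was 0.42 (95% interval 0.02 to 0.82), with an unadjusted limma p of 0.0398 and a limma adjusted p of 0.425.

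Zfas1 was at 18.4, 18.2, 16.3 and 15.3 TPM in control mice, 23.4, 21.8, 15.8 and 17.9 in Cd mice, 23.9, 18.3, 23.7 and 23.8 in Cd+Se mice, and 10.1, 32.1, 19.6 and 22.8 in Se mice. The lowest and the highest of all 16 values were both in the Se group. Between Cd and control mice its log2 fold change was 0.19 (95% interval -0.32 to 0.69, limma adjusted p = 0.584). Snhg5 was at 4.48 to 8.52 TPM in all 16 libraries, with group means of 6.06 ± 0.838 in control, 5.87 ± 1.07 in Cd, 6.09 ± 1.23 in Cd+Se and 6.63 ± 1.59 in Se mice. Between Cd and control mice its log2 fold change was -0.05 (95% interval -0.40 to 0.31, limma adjusted p = 0.857). With the deposited TPM, these intervals leave room for changes of the size seen for Snhg8 in Gas5, Snhg1, Snhg12 and Zfas1, but not in Snhg5. Under the alternative settings the Snhg5 value ran from -0.13 to 0.17, and its intervals there are not given.

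**Figure D2:**
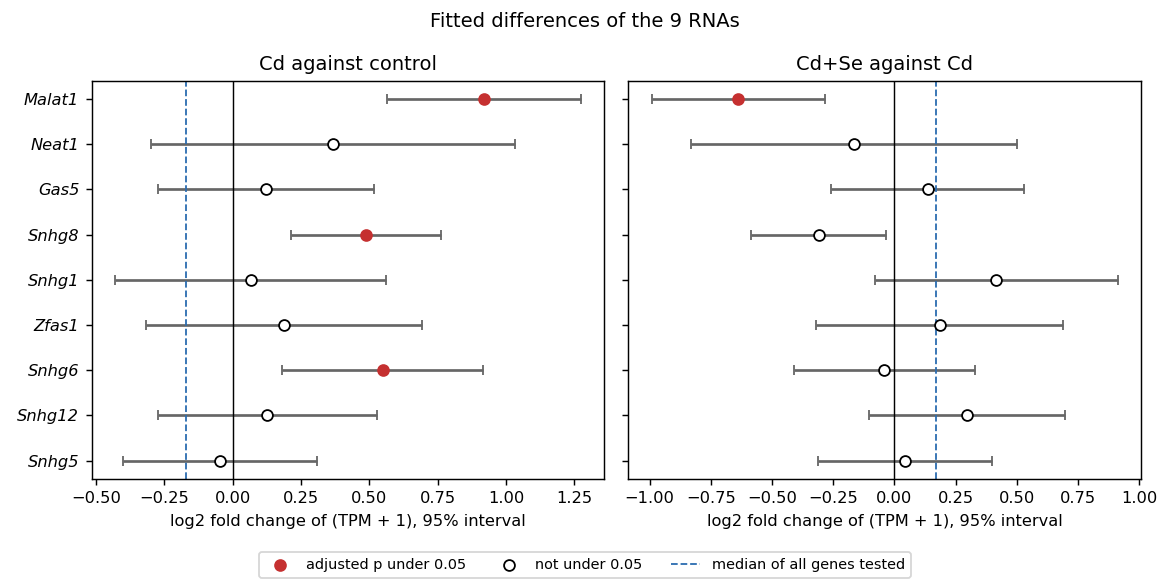
Log2 fold change of (TPM + 1) of the 9 RNAs with its 95% interval from limma, for Cd against control mice and Cd+Se against Cd mice (4 mice a group). Filled points have an adjusted p under 0.05 and the dashed line is the median of all genes tested, -0.17 and 0.17. Malat1, Snhg8 and Snhg6 passed in Cd against control mice, and Malat1 in Cd+Se against Cd mice.

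In Cd+Se against Cd mice, 1 of the 9 RNAs passed the test, Malat1, against 15.9% of all genes and 2.35% lower in Cd+Se. It was also the 1 of the 9 whose groups did not overlap, against 3.11% of the genes tested with Cd+Se below Cd. This comparison shares the Cd mice with Cd against control, so both are given side by side and not as independent results. In Cd+Se against control mice 0 of the 9 passed (0.484% of all genes). An unadjusted limma p under 0.05 was found there for 2 of the 9, Snhg6 and Snhg12, and for 1286 of the 11766 genes tested. In Se against control mice 0 of the 9 passed (0% of all genes), 0 had an unadjusted limma p under 0.05, and the log2 fold changes ran from -0.01 for Malat1 to 0.36 for Snhg1. In Cd+Se against Se mice 0 of the 9 passed (0.714% of all genes), and 0 had an unadjusted limma p under 0.05. The interaction of Cd and Se passed for 0 of the 9 (1.04% of all genes). An unadjusted limma p under 0.05 was found there for 1 of the 9, Malat1, and for 2505 of the 11766 genes tested. The Malat1 value was -0.63 (95% interval -1.13 to -0.12, limma adjusted p = 0.153).

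Within the Cd and Se groups the same mice were high or low for most hosts. Of the 7 hosts, 6 were highest of the Cd group in mouse 1, and 6 were higher in both Cd mice 1 and 2 than in both Cd mice 5 and 6, all but Snhg6. Over all genes tested, 58.7% were higher in mice 1 and 2 than in mice 5 and 6, so this order was common among all genes. The 7 hosts summed to 565, 516, 351 and 364 TPM in the Cd mice, against 349 to 416 in control mice and 422 to 479 in Cd+Se mice. In the Se group, mouse 40 was highest for 6 of 7 hosts and mouse 39 lowest for 5, with sums of 537 and 326 TPM. The order was less uniform in the other groups, where Cd+Se mouse 13 was highest for 5 hosts and lowest for 2, and control mouse 27 highest for 4 and lowest for 1. How many of all genes were highest or lowest in each of these single mice was not computed, so these counts cannot be called particular to the hosts.

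Values of library composition moved with this spread. Mitochondrially encoded genes held 13.05, 12.8, 22.2 and 18.04% of TPM in Cd mice 1, 2, 5 and 6, 16.4 to 17.3% in control mice, and 13.6% in Se mouse 40 against 16.9% in Se mouse 39. The 10 genes with the highest mean over the 16 libraries, the same 10 in each, held 26.2, 26.1, 31.8 and 29.8% in the Cd mice. Albumin mRNA, the hepatocyte transcript Alb, was at 41897 and 40772 TPM in Cd mice 1 and 2 and at 22135 and 28043 in Cd mice 5 and 6. Protein-coding genes held 84.7 to 87.8% of TPM in Cd mice and 88.4 to 90.2% in the 12 other mice, a split without overlap that Malat1 also showed. The part of these values in the host and Malat1 levels was not tested. As a description, deviations of log2(TPM + 1) from the group mean correlated over the 16 libraries with a median r of 0.63 in the 21 pairs of hosts (range -0.01 to 0.91), which share library and scaling, and such values over all genes were not computed. Malat1 with the hosts gave a median of -0.07 (range -0.33 to 0.19) and Neat1 with the hosts -0.01 (range -0.19 to 0.11).

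**Figure D3:**
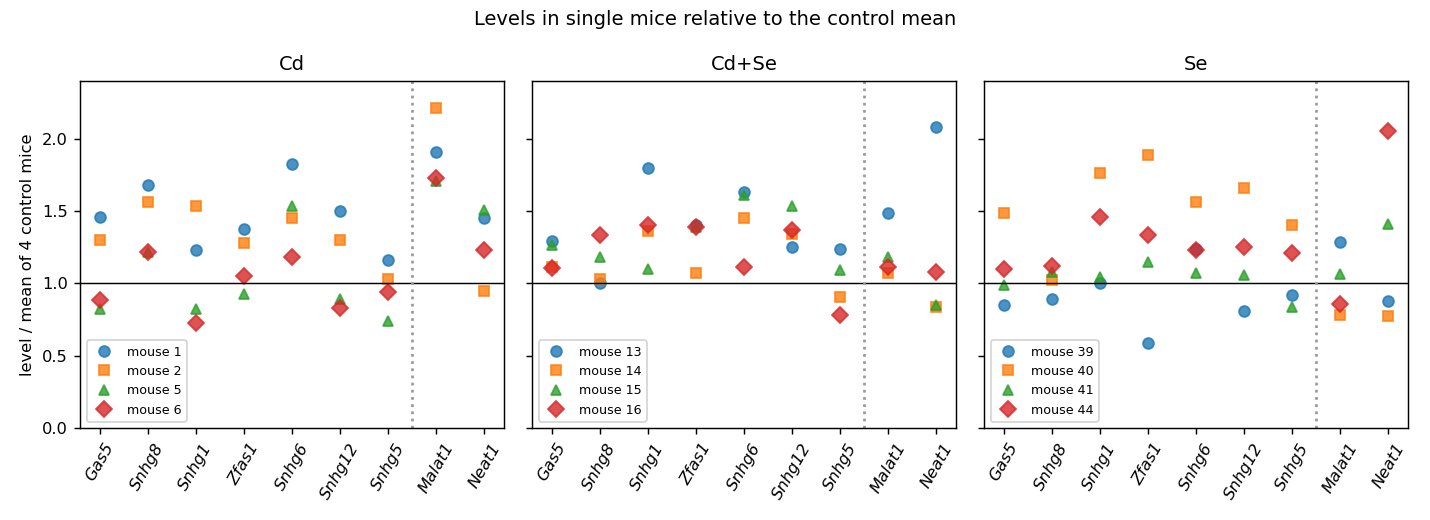
Level of each RNA in single Cd, Cd+Se and Se mice divided by the mean of the 4 control mice (line at 1), with the 7 hosts left of the dotted line. Cd mice 1 and 2 lay above Cd mice 5 and 6 for 6 of 7 hosts, while all 4 Cd mice lay well above 1 for Malat1.

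Marker sums of several cell types moved with the groups. The 6 hepatocyte markers summed to 61686 to 84349 TPM in control mice, 67143, 68090, 40774 and 47238 in Cd mice 1, 2, 5 and 6, 52466 to 73621 in Cd+Se and 61904 to 113783 in Se mice. Most of this sum was Alb, with control means of 52073 TPM for Alb and 73589 for the sum. The summed TPM of 6 Kupffer cell markers, all detected, was 105 to 129 in control mice, 35.0 to 54.4 in Cd, 32.1 to 65.6 in Cd+Se and 57.9 to 142 in Se mice. The 5 neutrophil markers, 3 of them averaging 1 TPM or more, summed to 5.73 to 15.7 in control mice, 31.0 to 39.6 in Cd, 43.96 to 73.2 in Cd+Se and 5.10 to 9.30 in Se mice. The 5 endothelial markers summed to 53.3 to 64.2, 33.6 to 50.4, 37.8 to 72.6 and 40.1 to 62.8 in the same order. No marker of these lists was at 0 in all libraries. The Kupffer cell and neutrophil sums lay outside the control range in all Cd and all Cd+Se mice. Among Se mice the Kupffer cell sum lay below that range in mice 39 and 44 and above it in mouse 40, and the neutrophil sum lay below it in mouse 39. The endothelial sums lay below the control range in all Cd mice. In Cd+Se mice 13, 14 and 16 they lay above it, at 64.5, 72.6 and 67.7, and in Cd+Se mouse 15 below it, at 37.8. Malat1 lay within its own control range in Cd+Se mice 14, 15 and 16, and above it in Cd+Se mouse 13. The part of these marker sums in the Malat1 and Snhg8 levels was not tested.

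The genes most like each RNA over the 16 libraries, by Pearson r of log2(TPM + 1) among the 7390 genes averaging 5 TPM or more, are given as a description. For Malat1 they were Romo1 (r = 0.900), 2200002D01Rik (0.892) and Apoc3 (0.888). Romo1, a small protein of the mitochondrial inner membrane, was at 54.8 to 75.4 TPM in control and 87.4 to 111 in Cd mice. For Gas5 they were Rps14 (0.930), Ccni (0.922) and Rpl13 (0.916), and for Snhg6 Lsm5 (0.843), Rps28 (0.839) and Rps13 (0.825). For Zfas1 they were the long noncoding RNA 2410006H16Rik (0.916), Cyp2c38 (0.897) and Gas6 (0.887). For Snhg12 they were Abtb1 (0.923), Dido1 (0.921) and Zfp512b (0.908), for Snhg8 Vps13d (0.902), Cyp2j9 (0.893) and Tle5 (0.890), for Snhg1 Socs2 (0.895), Mta1 (0.894) and Coq8b (0.886), and for Snhg5 Aig1 (0.841), Dgat1 (0.835) and Commd6 (0.8291). Neat1 had the lowest values, with Apol9b (0.822), Gm34667 (0.721) and Plgrkt (0.685).

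Host genes lie close to coding genes, and the strand setting of the counting is not given in the sources used here, so reads of overlapping opposite genes cannot be told apart. By GENCODE M21, Zfas1 (chr2:167062934-167065862, plus) overlaps Znfx1, a helicase gene on the other strand, by 82 bases. Znfx1 fell in Cd against control mice, with a log2 fold change of -1.30 (SE 0.142, limma adjusted p = 5.01e-05), and in Cd+Se against Cd mice its log2 fold change was 0.89 (SE 0.142, limma adjusted p = 0.00359). It was at 9.58 to 13.3 TPM in control and 3.07 to 4.19 in Cd mice, and at 8.11 ± 1.76 in Cd+Se mice (SD, n = 4), so that its control and Cd levels were apart while those of Zfas1 overlapped.

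Snhg1 (chr19:8723475-8726443, plus) starts 106 bases from Slc3a2, the heavy chain of the cystine transporter, on the opposite strand, and Slc3a2 had a log2 fold change of -0.29 (SE 0.196, limma adjusted p = 0.274) in Cd against control mice. Snhg12 (chr4:132308623-132311024, plus) lies 739 bases from Trnau1ap, whose product takes part in selenocysteine incorporation, at -0.04 (SE 0.104, limma adjusted p = 0.778). Gas5 (chr1:161034422-161038539, plus) overlaps Zbtb37 by 428 bases, which had 0.17 (SE 0.166, limma adjusted p = 0.456) at a mean of 1.27 TPM. Snhg6 (chr1:9941959-9944118, minus) overlaps Mcmdc2 by 127 bases and Snhg8 (chr3:123507552-123508404, minus) lies 955 bases from Prss12, and both coding genes were below 1 TPM, at means of 0.341 and 0.0594, and were not tested.

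Malat1 (chr19:5795690-5802672, minus) and Neat1 (chr19:5824708-5845478, minus) are neighbours on chromosome 19. Frmd8, next to Neat1, fell by 0.67 on the log2 scale in Cd against control mice (SE 0.232, limma adjusted p = 0.0370). Snhg5 (chr9:88521050-88522929, minus) had Zfp949 as its nearest coding gene, with a log2 fold change of 0.11 (SE 0.137, limma adjusted p = 0.558).

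Other genes of the same kind were read from lists chosen with earlier results of these data known, and each list is given by its counts and median beside those of all genes. In Cd against control mice 30.8% of all genes passed, 5.82% being higher, with a median of -0.17, and in Cd+Se against Cd mice 15.9% passed, with a median of 0.17. Of 11 other noncoding hosts tested, 1 rose in Cd mice and 0 fell (9.09% called), with a median of 0.26. That gene was Snhg11, which the table labels protein-coding. It was at 6.10, 3.92, 2.58 and 3.05 TPM in control mice, 22.4, 24.2, 21.5 and 16.1 in Cd mice, 13.7, 12.9, 9.55 and 11.5 in Cd+Se mice, and 3.67, 18.5, 5.18 and 7.46 in Se mice. The Cd and Cd+Se mice were all above the control mice, as were Se mice 40 and 44, and all Cd mice were above all Cd+Se mice. Its log2 fold change was 2.20 in Cd against control (SE 0.328, limma adjusted p = 0.00037) and -0.77 in Cd+Se against Cd (SE 0.328, limma adjusted p = 0.115), a difference that passed after centring (-0.96, limma adjusted p = 0.0358) and after quantile normalization (-0.92, limma adjusted p = 0.0434). In all, 0 of the 11 passed in Cd+Se against Cd mice, and 2 were lower after quantile normalization and after centring.

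Of 28 protein-coding hosts, most of them genes of ribosomal proteins and translation factors, 9 rose and 2 fell in Cd mice (39.3% called, against 30.8% of all genes), with a median of 0.22. The leading genes were Rps20 (1.20, SE 0.173, limma adjusted p = 0.000328) and Rpl12 (0.86, SE 0.247, limma adjusted p = 0.0161), both of which code for ribosomal proteins. Between Cd+Se and Cd mice 2 rose and 0 fell (7.14% called, against 15.9%), with a median of 0.01. These were the elongation factor Eef2 (0.81, SE 0.179, limma adjusted p = 0.0118), which was lower in Cd than in control mice by -0.62 (SE 0.179, limma adjusted p = 0.0168), and Rps3 (0.78, SE 0.224, limma adjusted p = 0.0297). Of 10 other long noncoding RNAs, 1 rose and 1 fell in Cd mice (20% called), with a median of 0.19, and 0 passed in Cd+Se against Cd mice. Centring called 34.5% of all genes in Cd mice and 18.8% in Cd+Se against Cd mice, and 55.6% and 42.4% of these calls were higher. Then 16 of the protein-coding hosts were higher and 1 lower in Cd mice, and 2 were higher and 8 lower in Cd+Se against Cd mice. The other noncoding hosts had 4 higher and 0 lower in Cd mice, and the other long noncoding RNAs had 4 higher and 1 lower in Cd mice and 0 higher and 2 lower in Cd+Se against Cd mice, each the same after quantile normalization. Firre, a nuclear RNA from the X chromosome, rose by 0.61 (SE 0.156, limma adjusted p = 0.00862), and the imprinted Peg13 had -0.56 (SE 0.131, limma adjusted p = 0.00517).

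Genes for proteins of the bodies that Malat1 and Neat1 mark were, with the deposited TPM, called in lower shares than all genes. Of 20 nuclear speckle and splicing genes, 4 rose and 1 fell in Cd mice (25.0% called, against 30.8% of all genes), with a median of 0.15, and 0 passed in Cd+Se against Cd mice. Srrm2, a core protein of speckles, had 0.74 (SE 0.171, limma adjusted p = 0.00489), and the splicing kinase Clk4 had 0.66 (SE 0.137, limma adjusted p = 0.00257). Of 18 paraspeckle protein genes, 0 rose and 4 fell in Cd mice (22.2% called), with a median of 0.01, and 1 rose in Cd+Se against Cd mice (5.56% called, against 15.9%). Smarca4, an ATPase of chromatin remodelling, had -0.60 (SE 0.101, limma adjusted p = 0.000735) and then 0.44 (SE 0.101, limma adjusted p = 0.0142), and Fam98a had -0.58 in Cd mice (SE 0.205, limma adjusted p = 0.0428). The counts turned with scaling: after centring, 9 paraspeckle genes were higher and 1 lower in Cd mice, and 14 speckle genes were higher and 1 lower. Centring also gave 5 lower and 0 higher paraspeckle genes, and 10 lower and 0 higher speckle genes, between Cd+Se and Cd mice. Smarca4 then no longer passed between Cd+Se and Cd mice (limma adjusted p = 0.0942), nor Fam98a between Cd and control mice (limma adjusted p = 0.0861).

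Genes for the proteins that bind and process the small RNAs were also read. Of 15 core proteins of small nucleolar ribonucleoproteins and their assembly factors, 0 rose and 5 fell in Cd mice (33.3% called, near the 30.8% of all genes), with a median of -0.31, and 5 rose in Cd+Se against Cd mice (33.3% called, against 15.9%), with a median of 0.24. Gar1, a subunit of box H/ACA particles, was at 14.4 ± 3.30 TPM in control, 6.07 ± 2.77 in Cd, 14.3 ± 2.77 in Cd+Se and 16.6 ± 3.14 in Se mice (SD, n = 4). Its log2 fold change was -1.18 (SE 0.251, limma adjusted p = 0.00305) in Cd against control and 1.18 (SE 0.251, limma adjusted p = 0.0102) in Cd+Se against Cd mice. Nop58, a subunit of box C/D particles, had -0.91 (SE 0.228, limma adjusted p = 0.00769) and 0.70 (SE 0.228, limma adjusted p = 0.0469). After centring, 1 of the 15 was higher and 3 lower in Cd mice, 2 were higher and 0 lower in Cd+Se against Cd mice, and Nop58 no longer passed there (limma adjusted p = 0.123).

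Of 16 exosome and nuclear decay genes, 2 rose and 5 fell in Cd mice (43.8% called, against 30.8% of all genes), with a median of -0.21, and 2 rose and 1 fell in Cd+Se against Cd mice (18.8% called, against 15.9%). Mtrex, the helicase that feeds nuclear RNA to the exosome, had -1.21 (SE 0.198, limma adjusted p = 0.000643) in Cd against control and 0.76 (SE 0.198, limma adjusted p = 0.0199) in Cd+Se against Cd mice. Xrn2, the nuclear exonuclease that degrades from the 5′ end, had -1.10 (SE 0.149, limma adjusted p = 0.000219) and 0.97 (SE 0.149, limma adjusted p = 0.00317). Of 16 nonsense-mediated decay factors, 1 rose and 4 fell in Cd mice (31.2% called), with a median of -0.11, and 3 rose in Cd+Se against Cd mice (18.8% called), both near the shares of all genes. Smg8 had -0.64 (SE 0.129, limma adjusted p = 0.00213) in Cd mice and the helicase Upf1 -0.62 (SE 0.116, limma adjusted p = 0.00145), while in Cd+Se against Cd mice Smg8 had 0.56 (SE 0.129, limma adjusted p = 0.0139). After centring the decay factors split into 5 higher and 3 lower in Cd mice and the exosome list into 4 and 3. In Cd+Se against Cd mice the same scaling gave 3 higher and 5 lower decay factors, and 2 higher and 3 lower exosome genes. Mtrex, Xrn2, Gar1, Nop58, Smg8 and Upf1 kept their direction and call in Cd against control mice after centring and after quantile normalization.

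**Figure D4:**
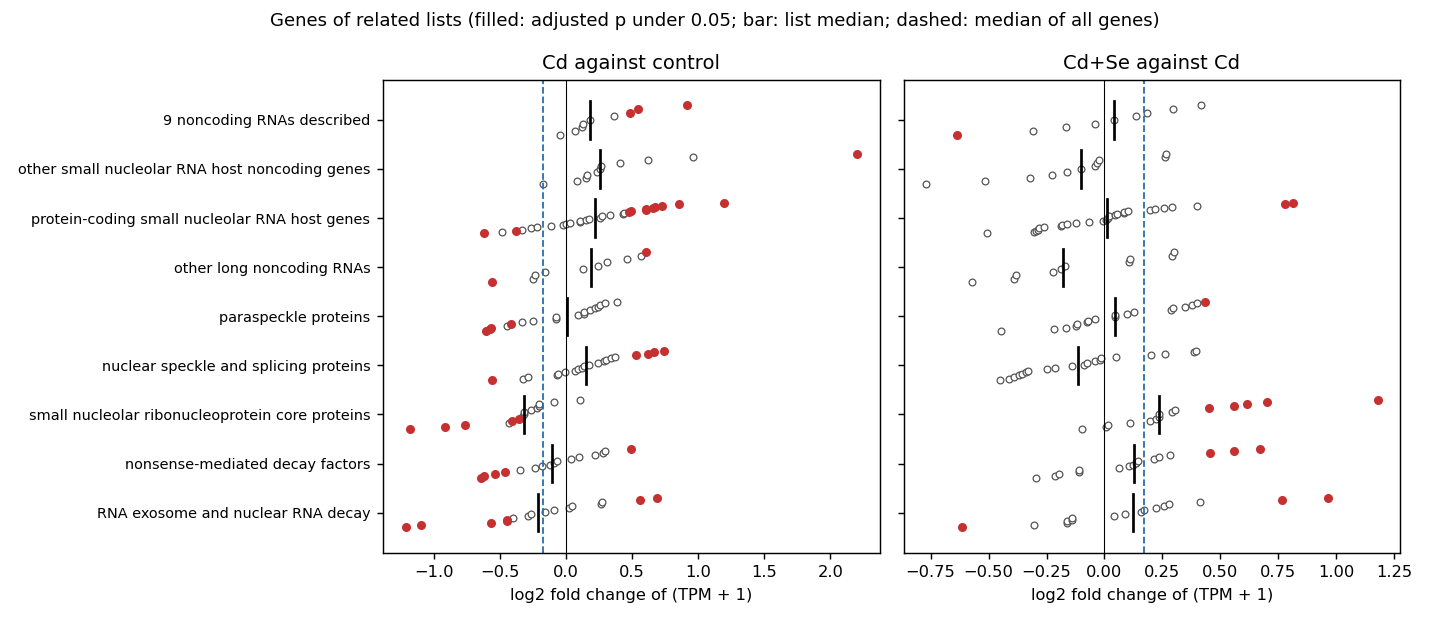
Log2 fold change of (TPM + 1) of the 9 RNAs and of each gene of 8 related lists, for Cd against control and Cd+Se against Cd mice. Each point is a gene, filled where its adjusted p is under 0.05, the bar is the list median and the dashed line the median of all genes tested. Snhg11 was the farthest gene to the right in Cd mice (2.20), and Mtrex (-1.21) and Gar1 (-1.18) the farthest to the left.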

How the data were processed

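Liver RNA was extracted with TRIzol, selected on oligo(dT) beads and sequenced on an Illumina NovaSeq, per the labels. The authors deposited 1 table of TPM for 57010 genes in 16 libraries, each named by a mouse number that is also in the sample title. Each title names a first and a second replicate for 1 column, and how these were joined is not stated. The submitters' processing notes name fastp, HISAT2 and StringTie, without versions, and the human build GRCh38, while the rows are mouse Ensembl genes, so no coordinate was taken from the table. Gene and small RNA positions are from GENCODE M21 (GRCm38) and start windows from RefSeq (GRCm38.p6), by symbol.

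The 11766 genes averaging 1 TPM or more were compared as log2(TPM + 1) with limma 3.58.1 in R 4.3.3, in 1 model with a mean for each of 4 groups and an intensity trend in eBayes, and p-values were adjusted over all genes tested with a threshold of 0.05. The labels name no batch and mice of a group are separate animals. Depth is unknown, so precision rests on 4 mice a group. The steps were tested on simulated data with independent noise for each gene and no shift shared by the genes of a library. That test therefore cannot show how scaling affects the calls. The 9 genes and all lists were chosen with earlier results of these data known. Named were the 9 genes, from each list the leading 1 or 2 called genes by size of change, in Cd against control and in Cd+Se against Cd, the nearest coding neighbours, the 3 genes most like each RNA, and Mt1, except that 2 genes this rule names are not reported here. Alb was added after its values were seen. Alternatives were a pseudocount of 0.1, no filter, a filter at 5 TPM, quantile normalization, centring on the median, rescaling without mitochondrial and the 10 highest genes, eBayes without a trend, only the groups compared, and each mouse left out. Protein-coding genes with the 9 RNAs only was added after seeing the data.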

Additional observations from a re-analysis of the deposited data

Results flagged for a closer look

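In control mice, Snhg1 in mouse 27 (25.8 TPM) stood apart from the other control mice, at 16.7 to 17.9 TPM, with a gap of 0.869 of the group's range, above Dixon's 95% critical value for 4 samples. In Cd+Se mice, Zfas1 in mouse 14 (18.3 TPM) stood below the other mice, at 23.7 to 23.9 TPM, with a gap of 0.958 of the range. Of 36 groups of 4 mice tested, these 2 passed, where chance gives about 1 in 20, or 1.8.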

How the results depend on the processing

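Of 54 fold changes of the 9 RNAs in 6 contrasts, 49 kept their side of the threshold under all 25 alternatives (24 for the interaction). The log2 fold change of Malat1 in Cd against control mice stayed between 0.83 and 1.14, with limma adjusted p of 0.000552 to 0.00577, and that of Snhg8 between 0.40 and 0.71, with limma adjusted p of 0.000253 to 0.0348. In Cd against control mice, 2 to 4 of the 9 passed, with 4 after centring. In Cd+Se against Cd mice, 2 passed after quantile normalization and after centring (Malat1 and Snhg8), 0 with only the groups compared, where 66 genes passed in all, and 0 to 1 with single mice left out. The interaction passed for 1 of the 9, Snhg8, after centring (limma adjusted p = 0.046). The cause of these differences was not tested. No paired analysis was possible because mouse numbers differ between groups. The depth is unknown, so no floor or counting interval can be given for the low hosts.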
